A study of Mus musculus with 24 samples.

Results

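The 10 genes described here, whose proteins build the mitotic spindle or divide the cell at the end of mitosis, were followed through the radiation response of primary mouse astrocytes: *Anln*, *Ect2*, *Prc1*, *Racgap1*, *Cit*, *Cep55*, *Aspm*, *Ckap2*, *Nusap1* and *Tacc3*. They were taken by symbol from the 49315 genes of the count tables, and all 10 passed the filter on low counts in each comparison. Astrocytes came from the brain cortex of wild type C57BL/6J mouse embryos in late gestation, were pooled per litter and were used in the first passage. The cells received 0, 0.1 or 2 Gy X-rays, and their poly(A) RNA was sequenced 6 h or 24 h later, with 4 libraries (n1 to n4) in each of the 6 groups, 0 Gy at 6 h, 0.1 Gy at 6 h, 2 Gy at 6 h, 0 Gy at 24 h, 0.1 Gy at 24 h and 2 Gy at 24 h. The 0 Gy cultures of the same time were the controls, and no other treatment, transgene or mutation was given for any group.

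Cell division ends with cytokinesis. Microtubules between the separating chromosomes are bundled into a central spindle, which recruits the activators of the small GTPase RhoA to the cell equator, and RhoA drives a contractile ring of actin and myosin that narrows the cell to a thin bridge, which is cut by the abscission machinery. Many of the genes for these proteins are transcribed in G2 and M phase. Their RNA is high in a culture with many dividing cells and low in a resting one. Others, in the contractile ring and the abscission machinery, are also used outside division. In RNA of whole cultures, fewer cells of a kind and less RNA per cell cannot be told apart.

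Total counts per library were between 14742855 and 38194800. The count of any of the 10 genes was at least 77 in every library (*Aspm*) and at most 3895 (*Ckap2*). Astrocyte markers were present in all libraries, with *Gfap* between 343.3 and 797.1 CPM (counts scaled by library size). The sum of 10 astrocyte markers was between 2206 and 2920 CPM, and the lowest of them, *S100b*, was between 1.149 and 5.665 CPM. Microglia markers were present too. Their sum was between 1396 and 2488 CPM in the libraries n1, n3 and n4 and between 210.1 and 259.1 CPM in the 6 n2 libraries. The neuron markers *Slc17a6*, *Snap25* and *Rbfox3* and the endothelial marker *Cldn5* were at or near 0. In every library *Stmn2* reached at least 180.9 CPM, *Olig1* at least 151.3 CPM and *Acta2* at least 2927 CPM. The sum of 9 fibroblast and vessel markers, which include *Acta2*, was between 3518 and 7831 CPM, above the sum of the astrocyte markers. Of these, *Col1a1* was between 117.7 and 878.8 CPM. The ranges of the 5 marker sums overlapped between 0 Gy and 2 Gy at both times. For microglia the low n2 library makes the range of each group wide, so this overlap says little. No marker of the 5 lists was called by edgeR in a dose comparison without pairing, but neither was any other gene (0% of all genes). Neither result can show that the cell types were unchanged. With the library number as a block, 2 of 10 astrocyte markers (*Gfap* and *Aldh1l1*, log2 fold changes 0.36 and 0.34) and 2 of 10 microglia markers (*C1qa* and *Trem2*, 0.48 and 0.50) were higher and 1 microglia marker (*P2ry12*, −0.52) was lower at 24 h after 2 Gy, where 6.53% of all genes tested were higher and 6.69% lower. At 24 h after 0.1 Gy *Trem2* and the oligodendrocyte lineage marker *Olig1* were higher with the block. When the blocked fits were also corrected for the base composition and length of the genes, *Trem2* after 2 Gy stayed called (adjusted p = 0.0145) and the other 6 of these 7 marker calls were lost (adjusted p between 0.0747 and 0.553). The part of these markers in the results below was not tested.

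Levels per kilobase of exonic sequence (RPKM, from CPM divided by the exonic length in the count tables) show the order of the genes in untreated cultures. At 24 h after 0 Gy, *Ckap2*, a microtubule-associated protein of the spindle poles, was at 26.4 ± 8.36 RPKM (SD, n = 4) and stood above all the others. *Tacc3*, which crosslinks the microtubule bundles that hold chromosomes, followed with 9.15 ± 1.43 RPKM. *Ect2* (7.58 ± 2.06 RPKM), *Prc1* (7.49 ± 0.793), *Anln* (7.02 ± 1.57), *Racgap1* (6.87 ± 0.352) and *Nusap1* (6.33 ± 0.909) came next. From *Tacc3* to *Nusap1* each gene differed from its neighbour in this order by less than the larger of their SDs. *Cep55* was at 4.92 ± 0.940 RPKM. *Aspm* (1.89 ± 0.763 RPKM) and *Cit* (1.11 ± 0.0404 RPKM) were lowest. The counts of *Cit* combine citron kinase, the cytokinesis form, with shorter forms of the gene. Exons of *Prc1*, *Nusap1* and *Tacc3* overlap a gene on the opposite strand (*Rccd1* by 911 bases, *Oip5* by 172 and *Tmem129* by 289), and strand use in the counting is not given in the sources used here, so these 3 genes are uncertain to that extent.

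**Figure D1:**
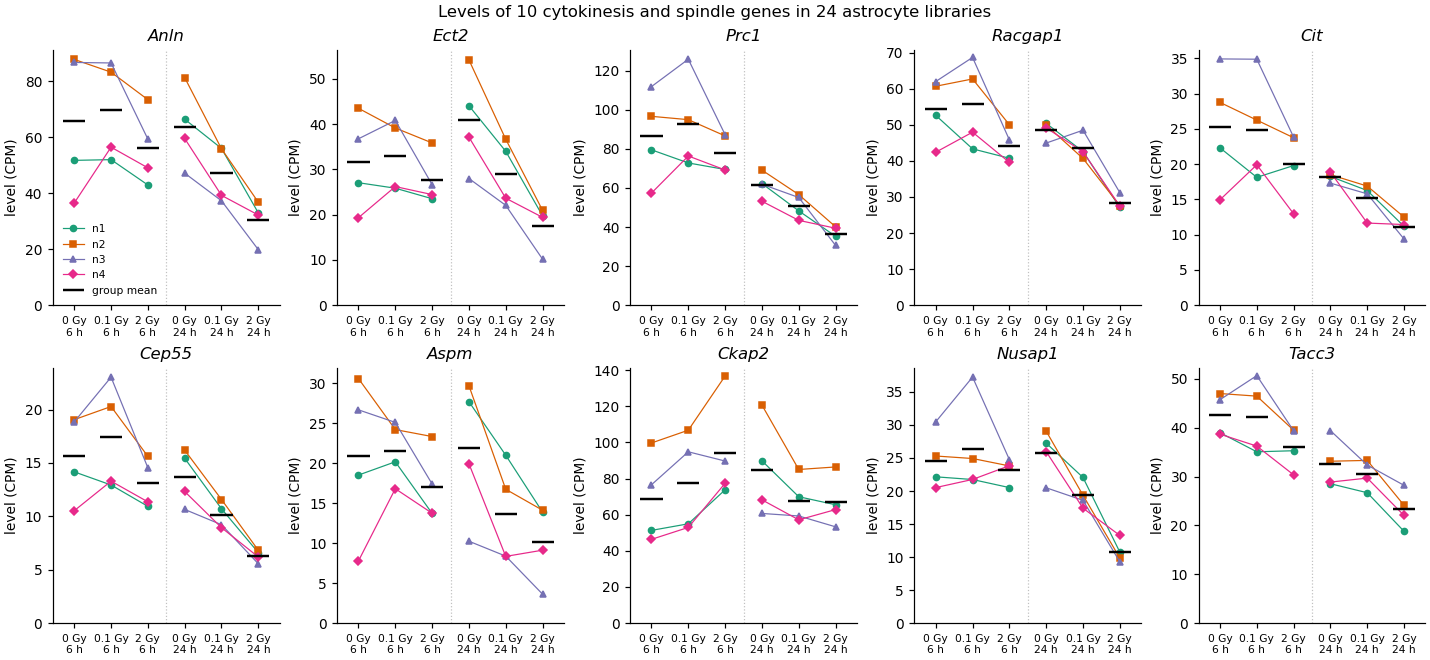
Level of each gene in CPM (y axes, from 0) in the 6 groups of dose and time (x axes). Each colour and symbol is 1 library number, joined by lines within a time, and black bars are the means of 4 libraries. At 24 h all 4 lines fall from 0 Gy to 2 Gy in all 10 panels, while at 6 h *Ckap2* is the only panel in which all 4 libraries are higher after 2 Gy than after 0 Gy.

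The first question was whether 2 Gy X-rays altered the expression of these genes 24 h after exposure. All 10 genes were lower after 2 Gy than after 0 Gy in all 4 pairs of libraries with the same number, against 21.9% of the 15892 genes tested. In 8 of 10 genes every 2 Gy library was below every 0 Gy library, against 2.01% of all genes tested. The libraries of 1 number go together within a time, and with the library number as a block in edgeR's quasi-likelihood test 9 of 10 genes fell (adjusted p under 0.05), against 6.69% of all genes tested. The genes were chosen with earlier results of these data known, so that this count is not independent evidence of the direction. Their levels after 2 Gy were between 42.2% (*Nusap1*) and 71.8% (*Tacc3*) of those after 0 Gy, and *Ckap2* was at 80.8%. Without the block, edgeR's test called 0 of 10 genes and 0% of all genes, with 9 of the 10 and 570 of all genes at an unadjusted p under 0.05. DESeq2 without the block called 7 of 10, against 0.312% of the 29803 genes in its fit, which had no filter on low counts. The median log2 fold change of the 10 genes was −0.92 both with and without the block, beside a median of 0.00 over all genes with it.

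*Nusap1* encodes a protein that bundles microtubules around chromosomes. At 24 h its levels were 27.3, 29.1, 20.5 and 26.0 CPM in the 4 libraries after 0 Gy and 10.8, 9.85, 9.28 and 13.3 CPM after 2 Gy. All 2 Gy libraries were below the lowest 0 Gy library, which was n3. With the block its log2 fold change was −1.25 ± 0.12 (SE), with an adjusted p of 0.00193 in edgeR, and 0.184 without the block. *Tacc3*, at the other end of the genes that fell, was at 28.5, 33.2, 39.4 and 28.9 CPM after 0 Gy and at 18.8, 24.1, 28.2 and 22.0 CPM after 2 Gy. The highest 2 Gy library lay just under the lowest 0 Gy library. Its log2 fold change was −0.48 ± 0.09 (SE), with an adjusted p of 0.0169 with the block and 0.940 without it.

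The genes that act on RhoA and the contractile ring all fell with the block. *Ect2*, the exchange factor that activates RhoA at the equator, was at 44.1, 54.2, 28.0 and 37.1 CPM after 0 Gy and at 19.8, 21.0, 10.2 and 19.4 CPM after 2 Gy at 24 h. The groups did not overlap, and n3 was lowest in both. The log2 fold change was −1.22 ± 0.11 (SE; adjusted p = 0.00186 with the block and 0.414 without, edgeR). *Anln*, anillin, a scaffold that links actin, myosin, septins and RhoA in the ring, was at 66.4, 81.3, 47.2 and 59.5 CPM after 0 Gy and at 33.0, 36.8, 19.8 and 32.2 CPM after 2 Gy, again with n3 lowest and no overlap. Its level after 2 Gy was 47.7% of that after 0 Gy (log2 fold change −1.07 ± 0.09, SE, adjusted p = 0.00186 with the block in edgeR). *Racgap1*, a GTPase-activating protein and a subunit of centralspindlin, which holds Ect2 at the central spindle, varied little between the cultures. It was at 50.4, 49.9, 45.0 and 49.2 CPM after 0 Gy and at 27.1, 27.6, 31.2 and 27.5 CPM after 2 Gy. The gap between the groups was wider than the range within either of them, and the log2 fold change was −0.77 ± 0.10 (SE; adjusted p = 0.00410 with the block and 0.202 without, edgeR). *Cit*, a kinase of the ring and midbody, was between 17.3 and 18.9 CPM after 0 Gy and between 9.37 and 12.5 CPM after 2 Gy, which is 60.9% of the control level.

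*Prc1*, which crosslinks antiparallel microtubules in the central spindle, was between 53.2 and 69.2 CPM after 0 Gy and between 30.6 and 40.1 CPM after 2 Gy at 24 h, with a level of 59.1% (adjusted p = 0.00750 with the block, edgeR). *Cep55*, which recruits the abscission machinery to the midbody, was at 15.4, 16.2, 10.7 and 12.3 CPM after 0 Gy and at 6.61, 6.82, 5.56 and 6.20 CPM after 2 Gy. The 2 Gy libraries were close together and all below the 0 Gy libraries. Its log2 fold change was −1.10 ± 0.12 (SE; adjusted p = 0.00249 with the block and 0.240 without, edgeR).

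The groups overlapped at 24 h in *Aspm* and *Ckap2*. *Aspm*, a spindle pole protein whose loss in humans causes microcephaly, was at 27.7, 29.7, 10.3 and 19.95 CPM after 0 Gy and at 13.9, 14.1, 3.63 and 9.13 CPM after 2 Gy. The n3 library after 0 Gy was below 2 of the 2 Gy libraries, while each pair differed by between −0.99 and −1.48 on the log2 scale. With the block *Aspm* fell to 45.1% (log2 fold change −1.15 ± 0.12, SE, adjusted p = 0.00233, edgeR), and without it the adjusted p was 0.940. *Ckap2* was at 89.9, 120.7, 60.7 and 68.3 CPM after 0 Gy and at 65.5, 86.5, 53.3 and 62.9 CPM after 2 Gy. All 4 pairs were lower, by 0.12 to 0.48 on the log2 scale, but the groups overlapped and the gene did not pass the test (log2 fold change −0.31 ± 0.10, SE, adjusted p = 0.0645 with the block, edgeR). It did pass in the blocked fit of all 24 libraries (adjusted p = 0.0268), while with the block and a correction for base composition and gene length its log2 fold change was −0.14 (adjusted p = 0.297).

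The number of calls rested on the pairs. Without the n2 pair, the one with the lowest microglia markers, 5 of the 10 genes were called with the block (*Anln*, *Ect2*, *Cep55*, *Aspm* and *Nusap1*), among 69 of all genes. Without the n3 pair all 10 were called, among 5291 of all genes. Without n1 or n4 it was 7 each time, among 143 and 245. At 24 h the log2 fold change was higher in genes of higher GC content (r = 0.561 over 15855 genes, which are no replicates). The 10 genes have a GC content between 40.2 and 54.2%. Only *Cit* and *Tacc3* lie above 49.62%, the median over genes with a mean count of at least 10. When the blocked fit was corrected for base composition and length of the genes (the GC and length correction), the same 9 genes were called, at log2 fold changes between −0.49 (*Prc1*, from −0.76) and −1.03 (*Nusap1*), and the median of the 10 genes was −0.77.

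**Figure D2:**
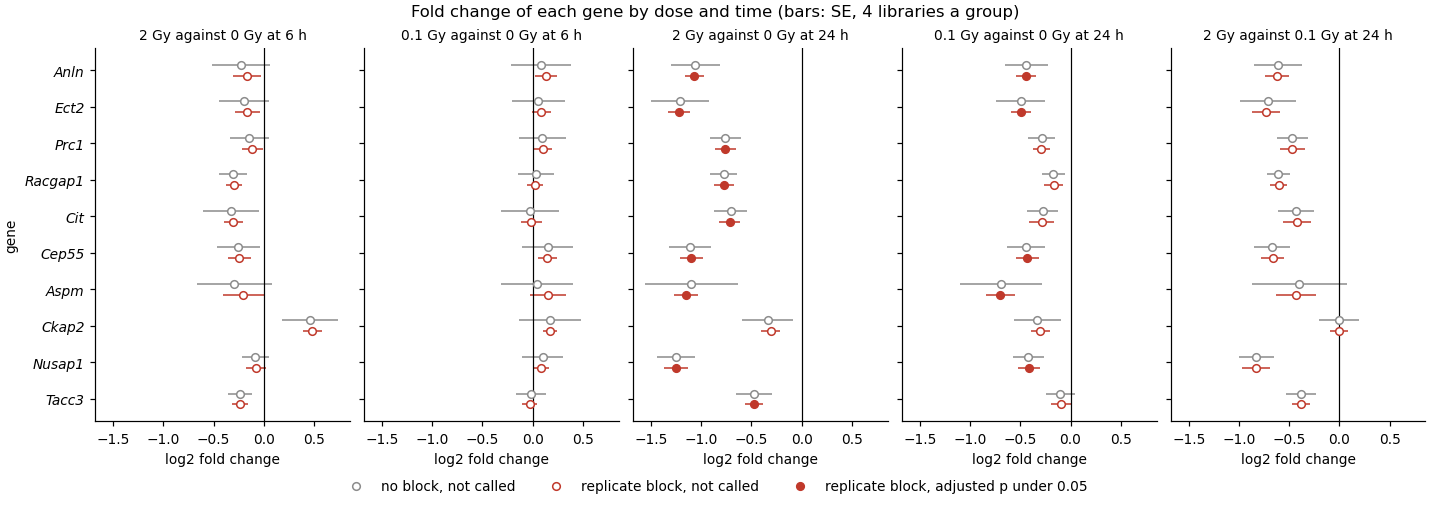
Log2 fold change (x axes) of each gene (y axis) in 5 dose comparisons, grey without and red with the library number as a block. Bars are SE from 4 libraries a group, and filled symbols have an adjusted p under 0.05. At 24 h after 2 Gy 9 red symbols are filled, at 24 h after 0.1 Gy 5, and no symbol is filled at 6 h or between 2 Gy and 0.1 Gy.

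As all 10 genes were lower at 24 h after 2 Gy, the sequence around their transcription starts was searched for 2 short elements. These are known from genes of G2 and M phase, the cell cycle homology region (TTTGAA, or TTTAAA) and the CCAAT box. The search covered both strands, in windows of 250 bases before to 50 bases after each start in RefSeq (GRCm38.p6). All 10 genes had a window. TTTGAA was found in 7 of 10 genes, against 20.2% of all 27025 genes with a window and 14.3% of the 11605 of them that were tested here. From 100 bases before the start onwards it was found in 6 of 10, against 9.2 and 5.7%. The other form, TTTAAA, was found in 1 gene (*Aspm*) against 14.9% of all genes, and CCAAT in 5 of 10 against 41.1%. *Nusap1*, *Cit* and *Tacc3* held none of the 3 in these windows. A match is a description of the sequence only. The 7 genes with TTTGAA are shown with 7 bases on either side of 1 element, on the strand of the gene, with that element in capitals (TTCAAA is the same element read on the other strand). *Anln* and *Ect2* held the element at 2 places. In *Anln* the second one, at +22, is the ttcaaa in lower case at the left of its line, and both elements of *Ect2* are shown.
Anln (chr9:22389166-22389185, minus strand, element at +29 from the RefSeq start): ttcaaatTTTGAAcggccgt
Ect2 (chr3:27153827-27153846, minus strand, at +16, or +40 from a second start): ggattttTTTGAAtcggagg
Ect2, other element (chr3:27153980-27153999, minus strand, at −138, or −114 from the second start): taccggaTTTGAAacacact
Prc1 (chr7:80294439-80294458, plus strand, at −5, or −30 from a second start): ggctcggTTTGAAttccgcg
Racgap1 (chr15:99651639-99651658, minus strand, at +6): gcgtgatTTTGAAccggatc
Cep55 (chr19:38055001-38055020, plus strand, at +25, or −33 from a second start): cgcgggaTTCAAActcccgg
Aspm (chr1:139454772-139454791, plus strand, at +7): cgcgataTTTGAAccgagca
Ckap2 (chr8:22185908-22185927, minus strand, at −101): gttcgatTTTGAAatttctc

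The 100 bases before the start are shown for 4 genes, to set 2 genes that hold CCAAT boxes (in capitals, ATTGG being the same element on the other strand) beside 2 that hold none. For *Ect2* they are those before the second start.
Aspm (chr1:139454673-139454772, plus strand): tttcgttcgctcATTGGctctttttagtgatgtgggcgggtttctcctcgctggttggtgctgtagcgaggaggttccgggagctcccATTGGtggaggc
Ect2 (chr3:27153879-27153978, minus strand): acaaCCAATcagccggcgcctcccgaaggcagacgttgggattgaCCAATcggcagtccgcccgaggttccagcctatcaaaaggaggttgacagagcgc
Nusap1 (chr2:119618198-119618297, plus strand): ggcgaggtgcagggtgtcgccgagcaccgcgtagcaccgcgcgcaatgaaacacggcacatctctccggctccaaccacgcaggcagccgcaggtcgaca
Tacc3 (chr5:33658028-33658127, plus strand): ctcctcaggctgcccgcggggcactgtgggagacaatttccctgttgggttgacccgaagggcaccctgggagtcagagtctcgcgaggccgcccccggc

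The next comparison was 2 Gy with 0 Gy at 6 h. *Ckap2* was at 51.3, 99.7, 76.6 and 46.4 CPM after 0 Gy and at 73.8, 136.8, 89.7 and 77.4 CPM after 2 Gy. It was higher in all 4 pairs, as were 8.77% of all genes tested, but the groups overlapped, and the log2 fold change of 0.48 ± 0.09 (SE) did not pass the test (adjusted p = 0.199 with the block and 1.00 without, edgeR). Of the other 9 genes, *Racgap1*, *Cit* and *Tacc3* were lower in all 4 pairs, against 8.54% of the 15994 genes tested, and the other 6 were lower in 3 pairs and higher in the n4 pair. In this pair the 0 Gy library was the lowest of its group for all 10 genes, as for *Aspm*, which was at 18.5, 30.6, 26.7 and 7.79 CPM after 0 Gy and at 13.7, 23.4, 17.4 and 13.8 CPM after 2 Gy. None of the 10 genes and 0% of all genes were called by edgeR with the block, nor without it (0%), with 4 and 0 of the 10 and 1101 and 215 of all genes at an unadjusted p under 0.05. DESeq2 called 0 of the 10 without the block and 1 with it (0.196% of all genes). With the block and the GC and length correction, which called 0.700% of all genes, *Ckap2* was higher (log2 fold change 0.40, adjusted p = 0.0227) and *Racgap1* lower (−0.35, adjusted p = 0.0234). The blocked fit of all 24 libraries called *Ckap2* alone of the 10 (adjusted p = 0.0149), among 0.449% of all genes. Without the n4 pair, 4 genes were called with the block (*Anln*, *Racgap1*, *Aspm* and *Ckap2*), among 129 of all genes. The median log2 fold change was −0.19 with the block and −0.23 without. It was between −0.063 (without n3) and −0.32 (without n4) with the block and 1 pair left out, and between −0.085 and −0.39 without the block and 1 library left out (the 0 Gy libraries n2 and n4).

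**Figure D3:**
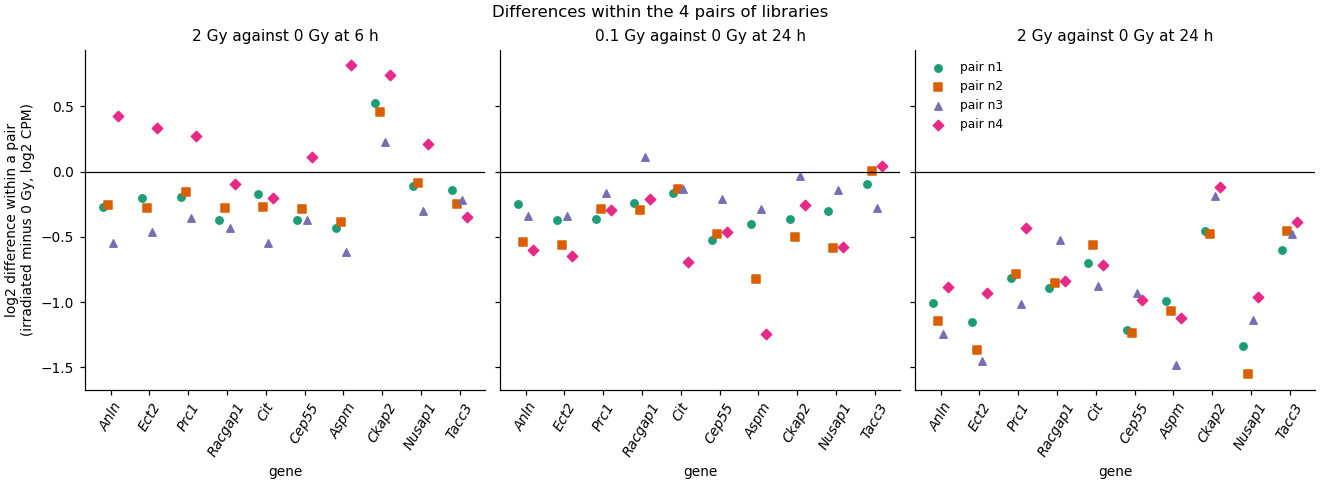
Log2 difference between the irradiated library and the 0 Gy library of the same number (y axis) for each gene (x axis), in 3 comparisons, with 1 symbol for each of the 4 pairs. At 24 h after 2 Gy all 40 differences are below 0, at 24 h after 0.1 Gy 37 of 40, and at 6 h after 2 Gy 30 of 40, with *Ckap2* above 0 in all 4 pairs.

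To ask whether the effect of 2 Gy differed between the times, the interaction of dose and time was fitted. With the block, 8 of 10 genes had a more negative log2 fold change at 24 h than at 6 h at an adjusted p under 0.05, against 3.23% of the 16866 genes tested, and *Cit* and *Tacc3* did not pass. The difference was largest in *Nusap1* (−1.16 ± 0.16, SE, adjusted p = 0.0133 with the block, edgeR). For *Ckap2* it was −0.78 ± 0.14 (SE, adjusted p = 0.0335), from values on either side of 0 at the 2 times. Without the block edgeR called 0 of the 10 genes and 0% of all genes, with 5 of the 10 and 827 of all genes at an unadjusted p under 0.05, and DESeq2 called 1 (*Nusap1*), against 0.0219% of all genes in its fit. The blocked calls fell to 0 without the n1 pair and to 0 without the n2 pair (0 of all genes each time), to 4 without n4 (138 of all genes), and were 9 without n3 (3951). With the GC and length correction 5 genes were called with the block, against 1.93% of all genes, at differences between −0.54 (*Ckap2*) and −0.85 (*Nusap1*), and *Prc1*, *Racgap1* and *Aspm* were lost (−0.27, −0.25 and −0.58).

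*Ckap2* moved apart from the other 9 genes. Its log2 CPM minus the mean log2 CPM of the other 9 was 0.707, 1.23, 0.820 and 1.02 in the 4 libraries at 6 h after 0 Gy and 1.48, 1.94, 1.48 and 1.59 after 2 Gy. At 24 h it was 1.41, 1.70, 1.22 and 1.18 after 0 Gy and 1.93, 2.23, 2.04 and 1.87 after 2 Gy. At both times the 2 Gy libraries were all above the 0 Gy libraries. After 0.1 Gy the difference was 1.04 ± 0.253 (SD, n = 4) at 6 h and 1.45 ± 0.114 at 24 h, and both means lay within the range of the 0 Gy libraries of the same time. This pattern was seen in the data first and was given no test.

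**Figure D4:**
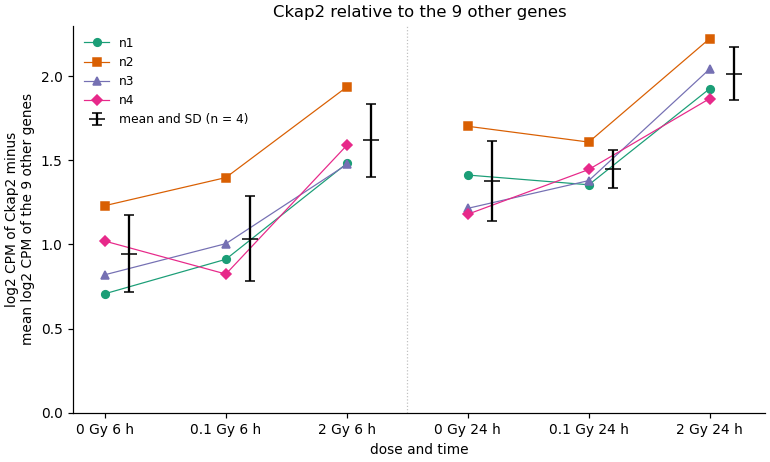
Log2 CPM of *Ckap2* minus the mean log2 CPM of the other 9 genes (y axis) in the 6 groups (x axis). Symbols are libraries, joined by number within a time, and black bars are means with SD (n = 4). The 2 Gy libraries lie between 1.48 and 1.94 at 6 h and between 1.87 and 2.23 at 24 h, above the 0 Gy libraries of the same time.

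The low dose of 0.1 Gy was compared with 0 Gy at both times. At 24 h, 8 of 10 genes were lower in all 4 pairs (all but *Racgap1* and *Tacc3*), against 16.2% of the 16183 genes tested. With the block 5 genes fell, *Anln*, *Ect2*, *Cep55*, *Aspm* and *Nusap1*, against 4.50% of all genes, to between 61.6% (*Aspm*) and 75.1% (*Nusap1*) of the 0 Gy level. These calls were lost in the blocked fit of all 24 libraries, which called 0 of the 10 and 0 of all 17353 genes (lowest adjusted p 0.0542), with 8 of the 10 and 4883 of all genes at an unadjusted p under 0.05 in edgeR. In the blocked fit that called 5 genes, *Trem2* (log2 fold change 0.45, adjusted p = 0.0463) and *Olig1* (0.41, adjusted p = 0.0285) were higher. *Ect2* was at 34.0, 36.7, 22.1 and 23.6 CPM after 0.1 Gy, so that its groups overlapped, and its log2 fold change was −0.49 ± 0.10 (SE, adjusted p = 0.0262 with the block, edgeR). *Nusap1* was at 22.1, 19.4, 18.6 and 17.4 CPM, where the highest library lay above the lowest 0 Gy library (log2 fold change −0.41 ± 0.11, SE, adjusted p = 0.0401 with the block, edgeR). *Tacc3* was at 26.7, 33.3, 32.4 and 29.7 CPM, within the range after 0 Gy but for n1. Without the n2 pair or without the n4 pair 0 of the 10 genes were called (21 and 16 of all genes), without n1 3 (1176) and without n3 7 (3728). With the GC and length correction in the blocked fit none was called (0.834% of all genes), and the lowest adjusted p was 0.0622 (*Aspm*, at 73.7% of the 0 Gy level). The median log2 fold change of the 10 genes went from −0.36 to −0.24. In that fit 8 of the 10 and 2731 of all genes had an unadjusted p under 0.05 in edgeR. Scaling by library size alone left 3 with the block (11.1%). That scaling also turned the split of all calls, from 728 lower of 1107 to 327 lower of 1803. Without the block 0 of 10 genes and 0% of all genes were called by edgeR, with 2 of the 10 and 241 of all genes at an unadjusted p under 0.05, and DESeq2 called 0.

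At 6 h after 0.1 Gy edgeR called 0 of the 10 genes and 0% of all genes with the block, and again 0 and 0% without it, with 1 and 0 of the 10 and 636 and 24 of all genes at an unadjusted p under 0.05. DESeq2 called 0. *Ckap2* was higher in all 4 pairs, as were 7.58% of the 16020 genes tested (log2 fold change 0.17 ± 0.07, SE, adjusted p = 0.885 with the block, edgeR), at 55.0, 106.8, 94.8 and 53.0 CPM after 0.1 Gy. The log2 fold changes of the 10 genes lay between −0.03 and 0.17, and their median was 0.10 with the block. Its sign rested on single libraries, since it was −0.014 without the n4 pair, and without the block it ran from −0.069 (without the 0.1 Gy library n3) to 0.21 (without the 0 Gy library n2).

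Between the doses at 24 h, *Anln*, *Ect2*, *Prc1*, *Racgap1*, *Cep55* and *Nusap1* were lower in every 2 Gy library than in any 0.1 Gy library, 6 of 10 genes against 1.06% of the 16002 genes tested. *Racgap1* was at 42.6, 40.7, 48.5 and 42.6 CPM after 0.1 Gy, well above its 2 Gy libraries. Its 4 pairs differed by between −0.56 and −0.65 on the log2 scale (mean −0.62 ± 0.04, SD). EdgeR called 0 of the 10 genes and 0% of all genes with the block, at an adjusted p of 0.0709 for *Racgap1*, and 0 and 0% without it, although 8 of the 10 had an unadjusted p under 0.05 in both fits, as did 790 and 215 of all genes. DESeq2 called 2 genes without the block (*Racgap1* and *Nusap1*, against 0.130% of all genes in its fit) and 5 with it (0.364%). EdgeR with the block called 6 with the GC and length correction (0.606%) and 7 with all 24 libraries in the fit (0.916%). *Ckap2* was at 70.0, 85.1, 59.3 and 57.2 CPM after 0.1 Gy and did not differ beyond the spread (log2 fold change −0.01 ± 0.09, SE, with the block). The comparisons at 24 h share their libraries, so their values are given side by side only. For *Nusap1* they were −0.41 for 0.1 Gy and −1.25 for 2 Gy, for *Aspm* −0.70 and −1.15, and for *Ckap2* −0.30 and −0.31.

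Culture time alone was compared in the 0 Gy libraries. At 24 h against 6 h 0 of the 10 genes were called by edgeR, against 6.70% of the 15887 genes tested. An unadjusted p under 0.05 was found in 2 of the 10 (*Prc1* and *Tacc3*) and in 3931 of all genes. DESeq2 called 0 of the 10, and 1969 of the 29955 genes in its fit. *Prc1* was at 79.5, 96.7, 111.9 and 57.4 CPM at 6 h and between 53.2 and 69.2 CPM at 24 h (log2 fold change −0.50 ± 0.20, SE, adjusted p = 0.157). *Tacc3* was at 39.0, 47.0, 45.8 and 38.7 CPM at 6 h (log2 fold change −0.41 ± 0.15, SE, adjusted p = 0.132). *Ect2* and *Ckap2* had positive log2 fold changes of 0.35 ± 0.28 and 0.30 ± 0.29 (SE), which were 0.077 and 0.13 with the GC and length correction. With that correction *Prc1* was lower (log2 fold change −0.72, adjusted p = 0.0316, edgeR), and so was *Racgap1* when the block was added (−0.33, adjusted p = 0.0441). These 2 fits called 1 and 2 of the 10 genes, among 1623 and 4210 of all 15887 genes tested. The cultures differed widely among themselves. The SD of *Aspm* was 48.2% of its mean at 6 h and 40.4% at 24 h after 0 Gy, while that of *Cit* was 34.0% at 6 h and 3.64% at 24 h.

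The genes were compared with the rest of their machinery in 4 lists of other genes, at 24 h after 2 Gy with the block, where 6.69% of all genes tested fell and 6.53% rose. All 11 genes of the central spindle list fell (11 of 11, median log2 fold change −0.99). *Kif20b*, a kinesin of the central spindle, went from 21.6 ± 3.77 to 8.70 ± 2.49 CPM (SD, n = 4), with a log2 fold change of −1.34 and an adjusted p of 0.00186. *Kif14*, a kinesin that binds citron kinase, and *Shcbp1*, a partner of centralspindlin, were at −1.17 and −1.12. Of 18 spindle and pole genes 9 fell and 0 rose (median −0.41). *Kif11*, the kinesin that pushes the spindle poles apart, had a log2 fold change of −1.38, *Ckap2l*, the paralog of *Ckap2*, of −1.23, and *Hmmr* of −1.18. *Ckap2l* therefore fell (adjusted p = 0.00211 with the block, edgeR) where *Ckap2* did not pass. The cause of that difference was not tested, nor was the difference itself.

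Of 19 contractile ring genes 5 fell and 0 rose, with a median of −0.13. The leading one was *Diaph3*, a formin that assembles actin, at −0.77 (adjusted p = 0.0104 with the block, edgeR). *Rock2*, a RhoA-dependent kinase, and *Cd2ap*, an adaptor of actin, were at −0.61 and −0.56. Of 16 abscission genes 1 fell and 3 rose, with a median of 0.05. *Spast*, spastin, which severs microtubules, was at −0.43 (adjusted p = 0.0192), and the ESCRT-III subunits *Chmp6*, *Chmp1a* and *Chmp4b* were at 0.55, 0.47 and 0.34. These 2 lists hold genes that cells also use outside division. With the GC and length correction, 11 central spindle, 8 spindle and pole, 1 contractile ring and 0 abscission genes fell, and none of the 4 lists had a gene that rose, against 1.74% of all genes that fell and 1.72% that rose. The median over all genes was 0.00. Without the block edgeR called no gene of the 4 lists (0% of all genes), while DESeq2 called 8 central spindle and 6 spindle and pole genes, all lower, and 0 of the contractile ring and abscission lists, against 0.312% of all genes in its fit.

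**Figure D5:**
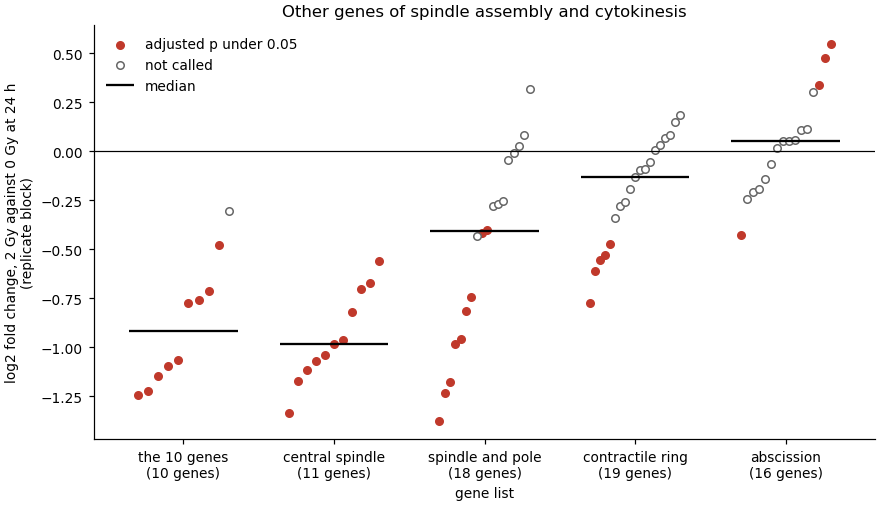
Log2 fold change between 2 Gy and 0 Gy at 24 h with the block (y axis) for the 10 genes and 4 lists of other genes of division (x axis). Each symbol is a gene, filled where the adjusted p was under 0.05, and bars are list medians, which run from −0.99 for the central spindle to 0.05 for abscission.

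Over the 24 libraries the 10 genes followed each other to different degrees. The correlation of log2 CPM with the mean of the other 9 was 0.979 for *Anln* and 0.977 for *Cep55*, 0.721 for *Tacc3* and 0.572 for *Ckap2* (Pearson's r, 24 libraries, which share groups and cultures). After taking out the group means it was 0.891 for *Ckap2* and 0.286 for *Tacc3*, so that *Ckap2* followed the others between the cultures of a group and *Tacc3* did so least. Of 17343 other genes, those with the pattern closest to the mean of the 10 were *Ckap2l* (r = 0.982), the kinetochore kinesin *Cenpe* (0.982), the cyclin *Ccnb1* (0.968), *Kif4* (0.965) and *Cdca2* (0.954). For reference, *Mki67*, the gene of the proliferation antigen Ki-67, had a log2 fold change of −1.61 ± 0.10 (SE, adjusted p = 0.00109) and *Cdkn1a*, the p53 target p21, one of 0.57 ± 0.08 (adjusted p = 0.00929) at 24 h after 2 Gy with the block in edgeR. Without the block their adjusted p was 0.275 and 0.940 in edgeR and 0.00204 and 0.828 in DESeq2, and with the block and the GC and length correction *Cdkn1a* was at 0.36 (adjusted p = 0.0345).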

How the data were processed

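Poly(A) RNA of 24 cultures of primary murine astrocytes was sequenced by a company (paired reads, NovaSeq6000). The authors deposited 1 table of raw counts per gene and library, on mm10. Aligner, counter and strand setting are not given in the sources used here. Groups follow the labels, which number the libraries of each group n1 to n4. The authors report 4 biological repeats per condition, and the labels do not say what a number stands for. Within a time, deviations from the group mean of libraries with the same number correlated at 0.539 to 0.927 across genes in every pair (threshold 0.1), so that the numbers pair the libraries. Between 6 h and 24 h at 0 Gy r was 0.409, 0.824, 0.064 and 0.517 for n1 to n4. The value of n3 was under the threshold, so the numbers were not taken to pair all libraries across times. The blocked fit of that comparison is given only among the alternatives. Counts were tested with edgeR 4.0.16 in R 4.3.3 (TMM, filterByExpr, quasi-likelihood F test, Benjamini-Hochberg over all genes tested, called at an adjusted p under 0.05), for each comparison on its own libraries, without and with the number as a block. SE is the log2 fold change divided by the square root of F. CPM use TMM factors over the 24 libraries, and log2 CPM a prior count of 2. Alternatives were DESeq2 1.42.0, other scalings, no filter, and all 24 libraries in 1 fit without and with the block. Others were a GC and length correction (splines with 5 degrees of freedom, GC from GENCODE M21 exons) and leaving out libraries. DESeq2 was run without the filter on low counts, so its shares are of more genes than those of edgeR. Genes named are the 10 genes, the 3 largest falls and rises called per list, *Mki67* and *Cdkn1a*, the 5 genes of most similar pattern, and markers. *Ckap2l* belongs to 2 of these. The 10 genes, the lists and the tests were chosen with earlier results of these data known. Median counts per library were lowest in *Cep55* (340) and *Aspm* (416) and highest in *Ckap2* (1912), and the precision of a single library follows these counts.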

Additional observations from a re-analysis of the deposited data

Results flagged for a closer look

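In 2 of 60 groups of 4 libraries (10 genes in 6 groups) 1 library stood far from the other 3 by Dixon's test, and chance alone gives about 1 in 20. *Ect2* at 24 h after 2 Gy had its lowest library, n3, at 10.2 CPM, with the others between 19.4 and 21.0 CPM. *Racgap1* in the same group had its highest library, also n3, at 31.2 CPM, with the others between 27.1 and 27.6 CPM. The effect of 2 Gy differed between 24 h and 6 h in 8 of the 10 genes by the interaction test in edgeR with the library number as a block, while none was called without the block (adjusted p between 0.819 and 0.820 for these 8). The difference in log2 fold change was −0.89 for *Anln* (adjusted p = 0.0336), −1.05 for *Ect2* (0.0335), −0.64 for *Prc1* (0.0410) and −0.47 for *Racgap1* (0.0472). It was −0.85 for *Cep55* (adjusted p = 0.0335), −0.94 for *Aspm* (0.0471), −0.78 for *Ckap2* (0.0335) and −1.16 for *Nusap1* (0.0133).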

How the results depend on the processing

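Calls depended on the pairing of libraries, the tool, the GC correction and the libraries in the fit. For 2 Gy at 24 h, the 0 genes of the 10 called by edgeR without a block became 9 with the replicate block (2100 of all genes), 7 with DESeq2 (93), 9 with DESeq2 and the block (2327), 4 with all 24 libraries in the fit (108), 10 with all 24 libraries and the block (3416), 9 with the block and the GC and length correction (551), and 5 with the block and a log2 fold change of at least 1 (129). With the block and DESeq2 size factors it was 9 (2036), and with the block and library size alone 9 (2191, of which 842 were lower, against 1063 of 2100). The last 2 settings were chosen after seeing the data. For 2 Gy at 6 h the counts were 1 (59 of all genes) with DESeq2 and the block, 1 (78) with all 24 libraries and the block, and 2 (112) with the GC correction and the block, and DESeq2 alone called 1 gene of all. For 0.1 Gy at 24 h they were 5 (1107) with the block, 7 (1766) with DESeq2 and the block, 0 (135) with the GC correction and the block, 0 (0) with all 24 libraries and the block, 5 (1542) and 3 (1803) with the 2 added scalings and the block, and 34 genes of all with the block and the minimum fold. Between 2 and 0.1 Gy they were 2 (39) with DESeq2, 5 (109) with DESeq2 and the block, 7 (159) with all 24 libraries and the block, 6 (97) with the GC correction and the block, 2 (41) with library size alone and the block, and 15 of all genes with all 24 libraries. For the interaction they were 8 (1143) with the block, 1 (7) with DESeq2, 8 (2455) with DESeq2 and the block, 8 (2759) with all 24 libraries and the block, 5 (326) with the GC correction and the block, and 2 (203) with the block and the minimum fold. For 24 h against 6 h at 0 Gy, where the 1064 genes called held none of the 10, the GC correction called 1 of the 10 (1623) and with the block 2 (4210), and the counts over all genes were 2428 with the block, 1969 with DESeq2, 3063 with DESeq2 and the block, 2488 with all 24 libraries and 564 with the minimum fold. The fit of all 24 libraries with the block gave no value there.

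With the replicate block and 1 pair left out at a time, the calls among the 10 genes were 5 to 10 for 2 Gy at 24 h and 0 to 4 for 2 Gy at 6 h. They were 0 to 7 for 0.1 Gy at 24 h, 0 to 6 between the doses and 0 to 9 for the interaction. For 24 h against 6 h they were 0 to 5 (0 to 1 without the block, leaving out 1 library). The 6 between the doses and the 5 for 24 h against 6 h came without the n3 pair, among 161 and 7192 of all genes. The median log2 fold change of the 10 genes moved by less than the SD of their median level between libraries (0.273) in every setting. That SD is a spread of levels and does not measure the error of a fold change. The interaction median went from −0.792 to −0.523 with the GC correction and no block. With 1 pair left out of the blocked fit the median changed sign for 0.1 Gy at 6 h (−0.014 to 0.16) and for 24 h against 6 h (−0.28 to 0.14). Without the block it did so for 0.1 Gy at 6 h (−0.069 to 0.21). Of single genes, 16 values of the log2 fold change turned sign in a setting other than a left-out library, all of uncalled values. With the GC correction, alone and with the block, these were *Ect2* (−0.030, −0.015), *Racgap1* (−0.018, −0.032) and *Cit* (0.035, 0.014) for 0.1 Gy at 6 h, *Ckap2* between the doses (0.018, 0.017), and *Aspm* (−0.24, −0.19) and *Nusap1* (−0.14, −0.13) for 24 h against 6 h. *Tacc3* for 0.1 Gy at 6 h turned with the GC correction alone (0.0053), *Cit* there with DESeq2 and the block (0.0011), and *Anln* for 24 h against 6 h with the block in edgeR (0.0050) and DESeq2 (0.019). Leaving out libraries turned further values near 0. For 0.1 Gy at 6 h the ranges, without and with the block, were −0.12 to 0.26 and −0.025 to 0.21 for *Anln*, −0.12 to 0.25 and −0.022 to 0.18 for *Ect2*, −0.081 to 0.13 and −0.024 to 0.12 for *Racgap1*, −0.23 to 0.17 and −0.14 to 0.085 for *Cit*, −0.23 to 0.29 and −0.11 to 0.35 for *Aspm*, and −0.11 to 0.060 and −0.085 to 0.013 for *Tacc3*. Without the block they were −0.082 to 0.25 for *Prc1*, −0.011 to 0.27 for *Cep55*, −0.028 to 0.42 for *Ckap2* and −0.11 to 0.22 for *Nusap1*. For 24 h against 6 h, without and with the block, they were −0.26 to 0.13 and −0.22 to 0.30 for *Anln*, −0.22 to 0.31 and −0.28 to 0.58 for *Aspm*, −0.028 to 0.16 and −0.034 to 0.26 for *Nusap1*, and −0.32 to 0.015 with the block for *Cep55*. They were −0.16 to 0.13 and −0.064 to 0.042 for *Ckap2* between the doses, −0.29 to 0.0037 for *Prc1* and −0.16 to 0.034 for *Nusap1* for 2 Gy at 6 h, and −0.15 to 0.0020 for *Tacc3* for 0.1 Gy at 24 h. The cause of these changes was not tested. At 24 h after 2 Gy no gene turned sign in any setting. Across the 2 times at 0 Gy, 5 of 8 libraries correlated best with their own number.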
